A study of Mus musculus with 4 samples.

Results

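Interferon-stimulated genes are the genes that cells turn on when interferon binds its receptor. The set described here has 45 members listed by symbol, all found in the gene table of the deposited libraries. They were placed in 9 groups by role: *Ifit* genes and other core antiviral effectors (12 genes), the OAS family (4), sensors of foreign nucleic acid (4), transcription factors (3), *Ifi* genes (4), interferon-inducible GTPases (7), Schlafens (4), PARP and chromatin genes (5), and *Trim30a* with *Samd9l* (2).

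Type I interferons bind the receptor made of IFNAR1 and IFNAR2, and interferon gamma binds IFNGR1 with IFNGR2. Both receptors act through Janus kinases. Type I signals act through a complex with STAT2 and IRF9 that binds the interferon-stimulated response element in promoters of the target genes. In T cells these pathways set an antiviral state and shape activation, survival and differentiation.

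Single-cell RNA was measured in blood T cells of C57BL/6 mice, aged 6 to 8 weeks, that carried subcutaneous tumors of the MC-38 colorectal line. There were 4 groups with 1 library each. Mice were left untreated, or received 150 µg of the anti-PD-L1 antibody on days 10, 13 and 17, or 150 µg of the agonist anti-OX40 antibody with 25 µg of CpG oligonucleotide on day 7 near the tumor, or both treatments (PDOX). Blood was taken on day 18 and T cells were enriched by negative selection. The sample labelled with OX40 alone was read as the group given anti-OX40 with CpG, the regimen of the study. The deposited record names 4 mice for the 4 blood samples, which reads as 1 per library; the study's methods give no number. With no replicate per treatment, an effect of treatment cannot be separated from one of the animal or the library, and differences between libraries are given with no test. Only cells that circulate were sampled, from a transplanted line in 1 strain.

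The deposited untreated library held 2392650 UMIs, that of anti-PD-L1 4969885, that of anti-OX40/CpG 4931178 and that of PDOX 4121932, in 862, 1451, 1583 and 1538 cells. With 200 or more genes required per cell, 784, 1446, 1559 and 1510 cells were kept. After removal of 13 mitochondrial, 102 ribosomal and 10 hemoglobin genes, the median kept cell had 1434.5, 1618, 1569 and 1494.5 UMIs. The genes removed were not equal among libraries: ribosomal genes took 38.0%, 41.4%, 43.1% and 34.6% of UMIs, and hemoglobin genes 7.99%, 0.344%, 1.51% and 1.70%. Between any 2 libraries, 1 to 6 cell barcodes were shared, 16 over all pairs.

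Cells were assigned by the UMIs of marker genes. The CD8+ T cell gate (*Cd3* genes, *Cd8a* or *Cd8b1*, no *Cd4*) held 312, 628, 667 and 447 cells, and the CD4+ T cell gate 98, 191, 261 and 294. Where 4 values follow one another without names here and below, they are those of untreated, then anti-PD-L1, then anti-OX40/CpG, and last PDOX. A further 67 NK cells, 130 B cells and 87 monocytes carried no *Cd3* UMI, and these were few in an enriched T cell sample. Summed *Cd3* levels in CD8+ T cells lay between 48.6 and 50.3 UMIs per 10000 in the 4 libraries, with *Cd3d* the most abundant of the 3 genes. Marker lists of other cells were low but not absent: the 7 monocyte genes summed to 7.59, 6.39, 5.04 and 5.06 per 10000 in CD8+ T cells, led by *Ctss*, with none of the 7 at 0. The 7 NK genes summed to 0.788, 0.928, 1.55 and 1.07, and the 4 B cell genes to 0.746, 0.431, 0.242 and 0.339. The monocyte genes in CD4+ T cells summed to 7.56, 7.95, 5.81 and 6.16. The part of this RNA in the levels below was not tested.

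All 45 members were detected in both T cell gates. In CD8+ T cells they summed to 43.2 UMIs per 10000 in the untreated library (95% interval 41.4 to 45.1, counting error only), 71.7 in anti-PD-L1 (70.2 to 73.2), 37.6 in anti-OX40/CpG (36.5 to 38.8) and 50.9 in PDOX (49.3 to 52.5). The anti-PD-L1 library stood highest and the anti-OX40/CpG library lowest, and the 4 intervals were apart. Over untreated, the ratios were 1.66 (1.58 to 1.74), 0.871 (0.827 to 0.918) and 1.18 (1.12 to 1.24). Member UMIs were spread unevenly over cells, with a variance of 1.66 to 3.47 times the mean at equal depth, so the true error is wider than these intervals.

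CD4+ T cells held more member RNA in every library. Their summed level was 53.1 per 10000 in untreated (49.5 to 57.0), 82.7 in anti-PD-L1 (79.5 to 86.1), 54.2 in anti-OX40/CpG (52.1 to 56.3) and 61.6 in PDOX (59.5 to 63.8). The anti-PD-L1 library was again the highest, at 1.56 times untreated (1.44 to 1.69), and PDOX lay at 1.16 (1.07 to 1.26). The anti-OX40/CpG library lay at 1.02 times untreated (0.941 to 1.11), a difference not detectable at this depth, and at 0.900 when cells were gated on *Cd4* by a log1p value above 1.

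The PDOX ratio depends on which genes make up the total. With mitochondrial, ribosomal and hemoglobin genes kept, it was 1.40 in CD8+ and 1.32 in CD4+ T cells. That choice also moved the median log2 ratio of all genes, PDOX over untreated, from -0.09 to 0.15 in CD8+ and from 0.08 to 0.24 in CD4+ T cells.

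One gene supplied much of the sum. *Ifi27l2a*, a small membrane protein gene of the interferon response, held 27.6% of the members' UMIs in CD8+ and 34.0% in CD4+ T cells. Without it, the anti-PD-L1 ratio was 1.51 (1.43 to 1.60) in CD8+ and 1.43 (1.29 to 1.57) in CD4+ T cells, and the PDOX ratio 1.18 (1.11 to 1.25) and 1.11 (1.01 to 1.22). The order of the libraries in CD8+ T cells was the same with and without it.

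The same order was seen in naive cells alone. T cells were called naive or effector when detected genes of one marker list exceeded those of the other by 2 or more. Effector cells were 14, 70, 146 and 216 of the CD8+ T cells. In naive CD8+ T cells the members summed to 44.0, 71.0, 38.0 and 48.9 per 10000, and in effector CD8+ T cells to 36.2, 64.6, 38.8 and 51.9. In naive CD4+ T cells they summed to 50.9, 80.9, 48.7 and 59.8. The 7 untreated and 14 anti-PD-L1 effector CD4+ T cells gave 68.8 (57.5 to 81.6) and 90.5 (79.9 to 102.1), beside 58.6 and 59.7 in the anti-OX40/CpG and PDOX libraries. The anti-PD-L1 library was highest in all 4 subsets.

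The other cells differed in level. In monocytes the members summed to 110.3 per 10000 in untreated, 123.9 in anti-PD-L1, 52.7 in anti-OX40/CpG and 55.3 in PDOX. The untreated value comes from 7 cells and the anti-OX40/CpG value from 11. The last 2 lay under those of CD4+ T cells by value, and that difference in the sum was not tested. The 4 neutrophil genes summed to 0.351, 0.769, 0 and 18.75 in monocytes, and their part in these levels was not tested. In B cells the sum was 47.4, 65.0, 24.4 and 42.8, the anti-OX40/CpG value from 7 cells. NK cells were low throughout, at 24.6, 19.1, 24.4 and 22.0, and their 4 intervals overlapped. NK cells held UMIs of 34 members, and none of the 4 OAS genes, in 111899 UMIs.

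**Figure D1:**
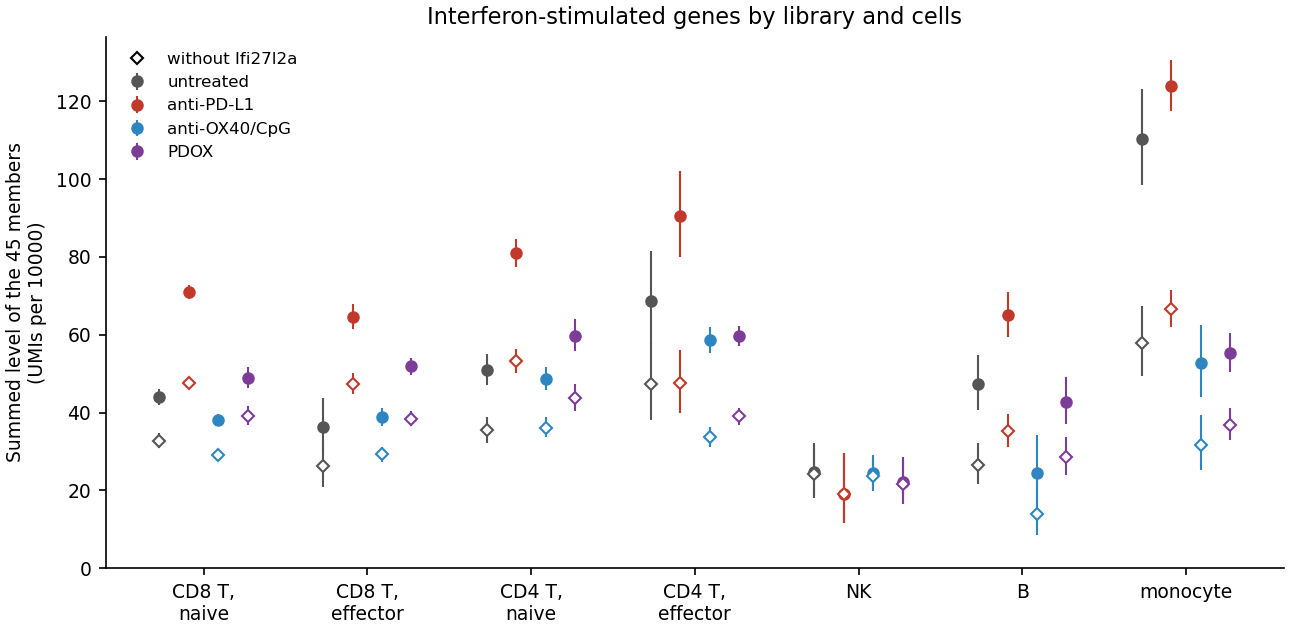
Summed UMIs of the 45 members per 10000 UMIs (vertical axis) by cell subset and library, with exact Poisson 95% intervals that cover counting error only. Filled circles are all members and open diamonds the sum without *Ifi27l2a*. The anti-PD-L1 library is highest in each of the 4 T cell subsets, from 64.6 to 90.5.

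Member by member, the anti-PD-L1 library led as well. Of 43 members with 20 or more UMIs in CD8+ T cells, 34 were highest in the anti-PD-L1 library, where 20.1% of all 8882 such genes were, and 25 lowest in the anti-OX40/CpG library (24.2%). Of 39 such members in CD4+ T cells, 28 were highest in anti-PD-L1 (25.7% of 6987 genes) and 14 lowest in anti-OX40/CpG (20.8%).

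For genes with 20 or more UMIs over the pair of libraries, the count past 1.5-fold was read against all such genes. In anti-PD-L1 CD8+ T cells, 20 of 41 members were higher, where 9.77% of all 7407 genes were, and 0 were lower, where 11.3% were. The median log2 ratio was 0.58 for the members and -0.05 for all genes. In anti-PD-L1 CD4+ T cells, 13 of 27 were higher (13.9% of all genes) and 0 lower (10.2%), with medians of 0.52 and 0.02. With 50 or more UMIs required, which leaves fewer members, 6 were higher in CD4+ T cells. The 13.9% is for 20 or more UMIs, so this count is not read against it.

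In the anti-OX40/CpG library, fewer members were higher than lower. In its CD8+ T cells, 2 of 35 members were past 1.5-fold higher (9.91% of all genes) and 9 lower (13.3%), with medians of -0.36 for members and -0.09 for all genes. In its CD4+ T cells, 2 of 28 were higher (18.6%) and 3 lower (13%), with medians of -0.06 and 0.04. The members' share was below the background in 3 of these 4 counts. In cells thinned to 750 UMIs the CD8+ medians were -0.09 for members and -0.05 for all genes. At 50 or more UMIs, which leaves fewer members, 1 was higher and 3 lower in CD8+, and 0 higher and 1 lower in CD4+ T cells. The shares of all genes above are not for this limit, so these counts are not read against them. The difference between lineages was not tested.

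In PDOX CD8+ T cells, 9 of 34 members were higher (11.5% of all genes) and 3 lower (18.7%), with medians of 0.17 and -0.09. In PDOX CD4+ T cells, 9 of 31 were higher (20.9%) and 2 lower (15.7%), with medians of 0.17 and 0.08. With all genes kept in the totals, 15 members were higher in CD8+ T cells. That choice moved the median of all genes from -0.09 to 0.15 and that of members from 0.17 to 0.42. The 11.5% of all genes does not apply to it. At 50 or more UMIs, 4 were higher in CD4+ T cells, and in cells thinned to 750 UMIs 5 were. No share of all genes is given for these settings, so these counts are not read against a background. All 3 comparisons share the untreated library.

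Among core antiviral effectors, the anti-PD-L1 library was high in both lineages. *Ifit1*, which encodes a protein that binds foreign RNA, stood at 0.332 per 10000 in untreated, 0.920 in anti-PD-L1, 0.199 in anti-OX40/CpG and 0.490 in PDOX CD8+ T cells, and at 0.338, 1.09, 0.174 and 0.365 in CD4+ T cells. Its anti-PD-L1 ratio was 2.77 (1.63 to 5.02) in CD8+ and 3.24 (1.25 to 10.6) in CD4+ T cells. Reads of the *Ifit* genes can be shared among family members, so single values in this family are uncertain.

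*Bst2*, encoding tetherin, which holds budding viruses at the cell surface, was the most abundant gene of the group, with 39.1% of its UMIs in CD8+ T cells. It stood at 2.90, 3.98, 2.26 and 2.44 in CD8+ T cells and at 3.31, 3.62, 1.61 and 2.23 in CD4+ T cells. In both lineages it was highest in anti-PD-L1 and lowest in anti-OX40/CpG. The group as a whole was 1.73 times untreated (1.53 to 1.96) in anti-PD-L1, 0.707 (0.614 to 0.814) in anti-OX40/CpG and 0.951 (0.825 to 1.10) in PDOX CD8+ T cells. The CD4+ ratios were 1.39 (1.11 to 1.75), 0.624 (0.493 to 0.793) and 0.850 (0.682 to 1.07).

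4 further effectors are given because of their size in CD8+ T cells, a choice made after their values were seen. *Isg15*, a ubiquitin-like modifier, stood at 0.643, 2.38, 0.613 and 1.34 in CD8+ T cells, 3.70 times untreated in anti-PD-L1 (2.55 to 5.55) and 2.09 in PDOX (1.39 to 3.23). Among CD4+ T cells it stood at 1.15, 1.502, 0.566 and 0.902, with an anti-PD-L1 ratio of 1.31 (0.733 to 2.44). Of the 17 untreated UMIs there, 12 came from the 7 effector cells; in naive CD4+ T cells it stood at 0.395, 1.18, 0.592 and 1.03, lowest in untreated. *Ifit3* stood at 0.207, 0.704, 0.173 and 0.339 in CD8+ T cells, an anti-PD-L1 ratio of 3.40 (1.76 to 7.34).

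The other pair was low in the 2 libraries with anti-OX40. *Usp18*, the protease that removes ISG15 and dampens receptor signals, stood at 0.456, 0.555, 0.121 and 0.214, or 0.265 times untreated (0.125 to 0.542) in anti-OX40/CpG CD8+ T cells. *Rtp4*, a restriction factor gene, stood at 0.809, 1.14, 0.397 and 0.452, or 0.491 (0.314 to 0.773) in anti-OX40/CpG and 0.559 (0.346 to 0.903) in PDOX. In CD4+ T cells *Usp18* went the other way by value, from 2 UMIs in untreated to 21 in PDOX, 2.98 times untreated (0.729 to 26.3).

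The OAS family makes the messenger that activates RNase L, or resembles its makers. It was sparse, at 0.726, 1.28, 0.389 and 0.490 summed per 10000 in CD8+ and 0.338, 0.853, 0.370 and 0.499 in CD4+ T cells. *Oasl2* had the most UMIs of the family over the 4 libraries together, at 0.249, 0.580, 0.138 and 0.188 in CD8+ T cells. *Oas3*, at 0.311, 0.439, 0.173 and 0.264, was above it by value in the 3 libraries other than anti-PD-L1. The family's anti-PD-L1 ratio was 1.76 (1.21 to 2.62) and its anti-OX40/CpG ratio 0.536 (0.337 to 0.858) in CD8+ T cells. In CD4+ T cells, with 5 UMIs in untreated, no ratio of the family was apart from 1. The *Oas* genes share sequence and their single values are uncertain.

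Among sensors, *Zbp1*, which reads Z-form nucleic acid and can start cell death, held 64.2% of the group's UMIs in CD8+ T cells. It stood at 1.08, 1.83, 0.915 and 1.16 in CD8+ and at 1.42, 2.22, 1.31 and 1.48 in CD4+ T cells. Its anti-PD-L1 ratio was 1.70 (1.25 to 2.34) and 1.57 (0.944 to 2.70). The other 2 treated libraries were close to untreated in both lineages. As a group, sensors were 1.43 times untreated (1.13 to 1.83) in anti-PD-L1 CD8+ and 1.77 (1.15 to 2.80) in anti-PD-L1 CD4+ T cells.

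*Irf7*, the factor that amplifies type I interferon production, had the most UMIs among transcription factors of the set over the 4 libraries together. It stood at 0.726, 1.53, 0.553 and 0.942 in CD8+ and 1.15, 1.88, 0.870 and 0.844 in CD4+ T cells. The anti-PD-L1 library was highest in both, at 2.11 times untreated (1.47 to 3.13) and 1.64 (0.935 to 3.01). In CD8+ T cells thinned to 750 UMIs, the first of these was 1.25. *Irf9* and *Stat2*, the other factors of the set, had 107 and 16 UMIs in anti-PD-L1 CD8+ T cells, against 36 and 4 in untreated, and their ratio intervals spanned 1. In untreated CD8+ T cells *Irf7* had 35 UMIs and so was not above *Irf9*, nor was it in PDOX CD4+ T cells, with 44 against 46.

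*Ifi27l2a* stood at 10.8, 22.9, 8.45 and 12.8 per 10000 in CD8+ and at 16.1, 29.9, 18.4 and 20.5 in CD4+ T cells. Its anti-PD-L1 ratio was 2.11 (1.92 to 2.32) and 1.86 (1.61 to 2.16). In anti-OX40/CpG it was 0.779 (0.6997 to 0.868) in CD8+ and 1.15 (0.993 to 1.33) in CD4+ T cells. In naive CD4+ T cells alone it stood at 12.5 in anti-OX40/CpG and 15.4 in untreated. *Xaf1*, which counters an inhibitor of cell death, stood at 0.581, 1.16, 0.458 and 0.867 in CD8+ and at 0.540, 1.09, 0.370 and 0.825 in CD4+ T cells. Its anti-PD-L1 ratio was 1.998 (1.32 to 3.12) and 2.02 (0.913 to 5.08).

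The interferon-inducible GTPases attack vacuoles that hold pathogens and respond strongly to interferon gamma. They summed to 5.16, 9.27, 5.55 and 6.87 in CD8+ and to 5.13, 10.3, 6.59 and 7.69 in CD4+ T cells. Relative to untreated, they were 1.80 (1.56 to 2.07) in anti-PD-L1, 1.08 (0.928 to 1.25) in anti-OX40/CpG and 1.33 (1.14 to 1.55) in PDOX CD8+ T cells, and 2.02 (1.56 to 2.63), 1.29 (0.996 to 1.67) and 1.499 (1.17 to 1.94) in CD4+ T cells. No treated library had a value under untreated in either lineage, unlike the core effectors.

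*Igtp* stood at 0.726, 1.96, 1.002 and 0.930 in CD8+ and at 1.08, 2.42, 1.44 and 1.69 in CD4+ T cells, an anti-PD-L1 ratio of 2.70 (1.88 to 3.96) and 2.24 (1.29 to 4.14). *Irgm1*, which keeps related GTPases off the cell's own membranes, stood at 0.352, 0.812, 0.501 and 0.590 in CD8+ and at 0.203, 0.990, 0.413 and 0.614 in CD4+ T cells. Its anti-PD-L1 ratio was 2.30 (1.37 to 4.11) and 4.89 (1.52 to 25.1), and its PDOX ratio 1.68 (0.944 to 3.11) and 3.03 (0.948 to 15.5). Both genes were highest in the anti-PD-L1 library.

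*Gbp4* stood at 0.726, 1.24, 0.734 and 0.704 in CD8+ and at 0.338, 1.47, 0.740 and 0.787 in CD4+ T cells, an anti-PD-L1 ratio of 1.71 (1.18 to 2.55) and 4.35 (1.73 to 14.1). *Iigp1* was past 1.5-fold in PDOX in both lineages, from 6 to 21 UMIs in CD8+ (ratio 2.12, 0.828 to 6.42) and from 2 to 23 in CD4+ T cells (3.27, 0.808 to 28.6), with a CD8+ ratio of 0.674 under the log1p gate. *Ifi47*, the most abundant of the group, stood at 1.87, 2.72, 1.87 and 2.25 in CD8+ and 1.96, 3.38, 1.96 and 2.21 in CD4+ T cells. Members of these GTPase families share reads, and their single values are uncertain.

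Schlafens restrain proliferation and viral protein synthesis. They summed to 5.93, 7.71, 5.93 and 6.96 in CD8+ and to 8.91, 10.9, 9.20 and 9.82 in CD4+ T cells. *Slfn2*, which maintains T cell quiescence, held 65.5% of the group's UMIs in CD8+ T cells, at 3.21, 4.79, 4.12 and 5.0, and stood at 5.33, 6.69, 6.50 and 7.19 in CD4+ T cells. It was lowest in untreated in both lineages.

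*Slfn8* differed from it. It stood at 0.581, 0.563, 0.337 and 0.377 in CD8+ and at 0.675, 0.819, 0.392 and 0.211 in CD4+ T cells. Both libraries with anti-OX40 were lower, with ratios of 0.580 (0.348 to 0.979) and 0.649 (0.375 to 1.13) in CD8+, and 0.580 (0.254 to 1.41) and 0.313 (0.121 to 0.821) in CD4+ T cells. In CD8+ T cells thinned to 750 UMIs, those ratios lay on the other side of untreated, at 1.27 and 1.41. Schlafen genes share sequence, and their single values are uncertain.

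*Sp100*, a nuclear body protein gene, held 62.2% of the UMIs of the PARP and chromatin group in CD8+ T cells. It stood at 3.96, 4.63, 4.13 and 6.22 in CD8+ and at 4.39, 5.19, 4.35 and 5.26 in CD4+ T cells. *Phf11b*, a PHD finger gene named after its values were seen, stood at 0.498, 1.10, 0.829 and 1.60 in CD8+ T cells, 3.21 times untreated in PDOX (2.06 to 5.19). Effector cells were 14 of 312 CD8+ T cells in untreated and 216 of 447 in PDOX. In naive CD8+ T cells alone, *Phf11b* stood at 0.470 in untreated and 0.936 in PDOX. *Sp100* stood there at 4.03, 4.35, 3.41 and 4.88, a smaller lead of PDOX than in the whole gate. The part of effector cells in the PDOX values was not tested. Over the whole CD8+ gate, PDOX was the highest library for this group. The group's ratio was 1.58 (1.38 to 1.81) in PDOX, 1.30 (1.14 to 1.49) in anti-PD-L1 and 1.08 (0.943 to 1.24) in anti-OX40/CpG. In CD4+ T cells the same ratios were 1.17 (0.943 to 1.45), 1.16 (0.919 to 1.46) and 1.01 (0.810 to 1.26).

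*Trim30a*, an antiviral ubiquitin ligase gene, stood at 1.31, 1.60, 0.855 and 1.16 in CD8+ and at 1.35, 1.54, 1.26 and 1.21 in CD4+ T cells. It was highest in anti-PD-L1 in both lineages. With *Samd9l*, an inhibitor of translation, the group's ratio was 1.25 (1.02 to 1.56) in anti-PD-L1 and 0.798 (0.623 to 1.02) in PDOX CD8+ T cells.

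Across both lineages, 8 of 27 members counted in both gates were past 1.5-fold higher in anti-PD-L1, where 1.2% of 3746 genes were: *Ifit1*, *Irf7*, *Ifi27l2a*, *Xaf1*, *Zbp1*, *Gbp4*, *Igtp* and *Irgm1*. In anti-OX40/CpG, *Slfn8* of 28 was lower in both (2.76% of all genes). In PDOX, *Iigp1* and *Irgm1* of 31 were higher (5.32%) and *Slfn8* lower in both (5.91%). The last 3 counts are close to the background.

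**Figure D2:**
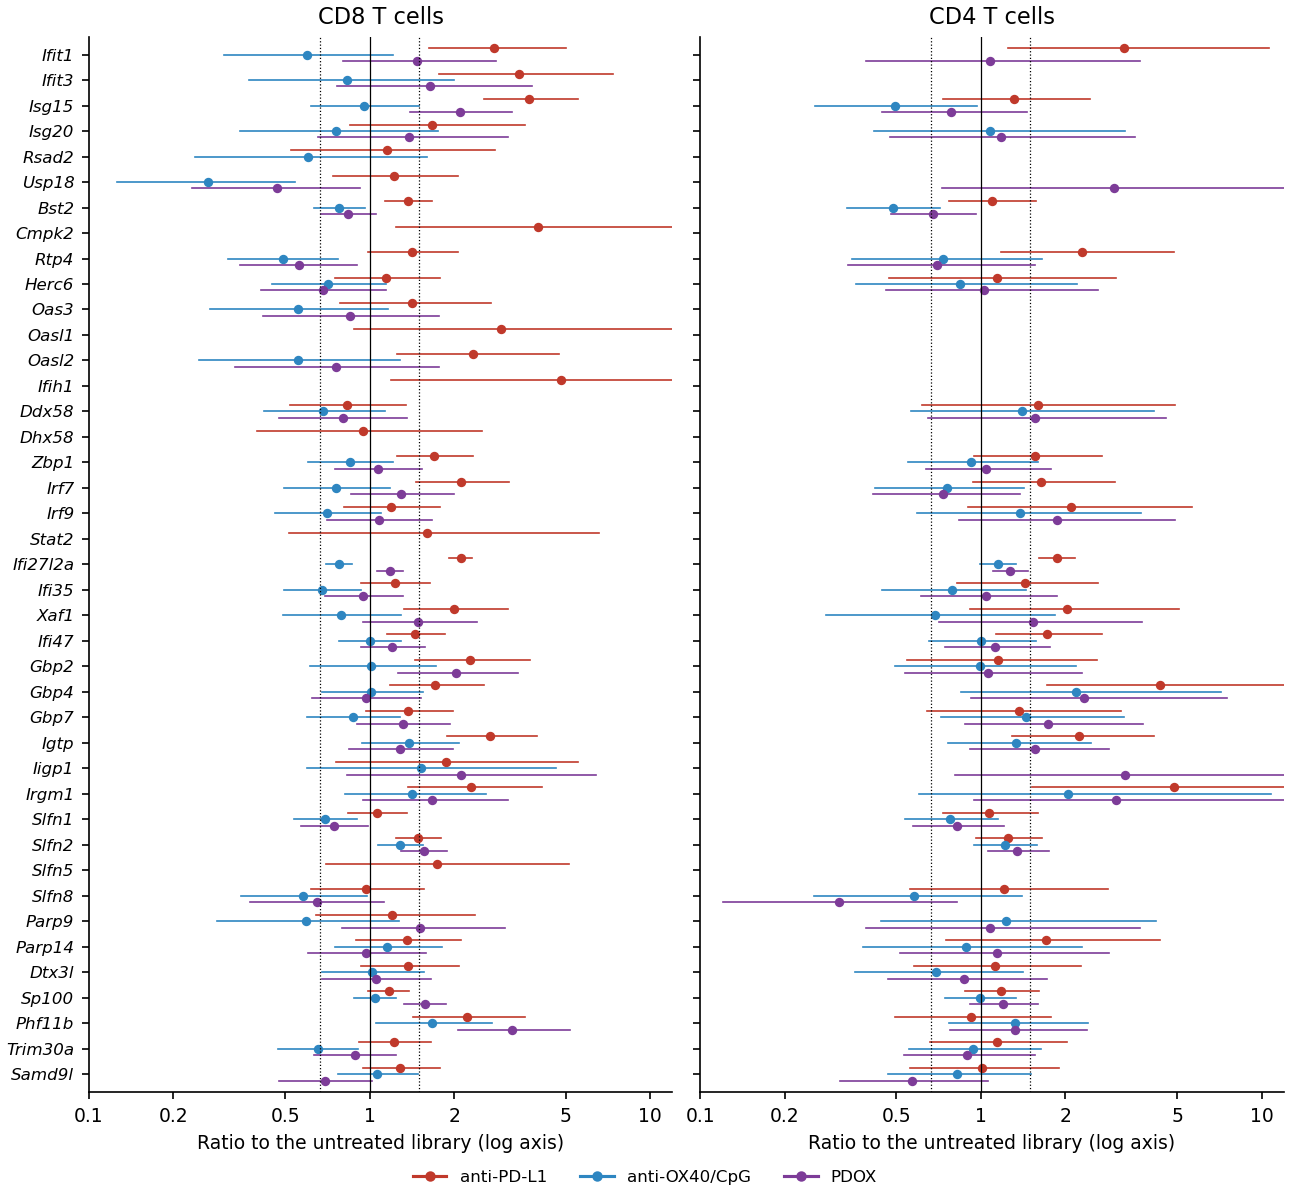
Ratio of each treated library to the untreated library for members with 20 or more UMIs over the pair, in CD8+ T cells (left) and CD4+ T cells (right), on a log axis; lines are exact 95% counting intervals, clipped at the axis limits, and dotted lines mark 1.5-fold in each direction. In CD8+ T cells the anti-PD-L1 points lie past the upper line for 20 of 41 members and past the lower line for 0.

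Genes upstream of the members were measured as well, from a list of 27 outside the set. No UMI of *Ifna1*, *Ifna2*, *Ifna4* or *Ifnb1* was counted in any of the 5 gates, which in anti-PD-L1 CD8+ T cells allows a level of up to 0.0306 per 10000 (upper 95% limit). The limit was far looser in gates with few cells. It reached 3.52 in anti-PD-L1 NK cells, 2.72 in anti-OX40/CpG B cells and 1.46 in anti-OX40/CpG monocytes. *Ifng* stood at 0.145, 0.273, 0.509 and 0.578 in CD8+ T cells, lowest in untreated and highest in PDOX, and at 0, 0.137, 0.305 and 0.576 in CD4+ T cells. Within effector CD8+ T cells, which were 14, 70, 146 and 216 of these cells, it stood at 1.995, 1.22, 1.73 and 1.001, and PDOX was lowest.

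The 4 receptor genes were also read. *Ifnar1* stood at 1.10, 0.920, 0.794 and 0.779 in CD8+ T cells, *Ifnar2* at 0.581, 0.638, 0.475 and 0.628, and *Ifngr1* at 2.49, 2.41, 2.44 and 2.69. *Ifngr2* stood at 0.498, 0.497, 0.337 and 0.151 in CD8+ and at 0.540, 0.717, 0.283 and 0.134 in CD4+ T cells, lowest in PDOX in both. In naive cells alone it stood at 0.575, 0.549, 0.491 and 0.273 in CD8+ T cells. The naive CD4+ values were 0.395, 0.743, 0.547 and 0.368, so PDOX was close to untreated there. In CD4+ T cells *Ifngr1* stood at 2.97, 1.43, 2.81 and 3.22. *Irf1*, an interferon gamma target, stood at 1.49, 1.94, 1.34 and 1.23, and *Socs1*, the feedback inhibitor, at 0.601, 0.464, 0.466 and 0.264 in CD8+ T cells. In naive CD8+ T cells alone *Socs1* stood at 0.575, 0.487, 0.554 and 0.468. The part of the naive and effector mix in these values was not tested.

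Member RNA was then read cell by cell. To compare cells at equal depth, each cell with 750 or more UMIs was thinned to 750, and cells with fewer were left out. These were 29, 38, 53 and 46 CD8+ and 11, 13, 21 and 19 CD4+ T cells. Then 43.5% of untreated CD8+ T cells had UMIs of 3 or more members (Clopper-Pearson 37.6 to 49.5), 68.3% in anti-PD-L1 (64.4 to 72.0), 39.1% in anti-OX40/CpG (35.2 to 43.1) and 47.9% in PDOX (42.9 to 52.9). The CD4+ shares were 59.8%, 80.3%, 56.3% and 56.7%. The anti-PD-L1 share was apart from the others in both lineages. The 10% of cells with the most member UMIs held 28.3%, 27.7%, 27.2% and 30.2% of them in CD8+ and 25.9%, 24.0%, 30.1% and 30.2% in CD4+ T cells. With 5 or more members required, the CD8+ shares were 14.1%, 32.2%, 8.63% and 14.7%.

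Naive and effector cells of one library can be compared across libraries, which serve as the replicates. In CD8+ T cells (4 libraries, edgeR, 4885 genes tested), 3 of 29 members tested were called higher in effector cells, where 13.4% of all genes were, and 2 lower, where 12.5% were. That is close to the background, and the median log2 change was 0.03 for the members and -0.01 for all genes. DESeq2 called the same numbers, 3 and 2. The set did not move one way, while single genes did.

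*Phf11b* stood at 0.665 in effector and 0.470 in naive cells of the untreated library, at 2.10 and 0.762 in anti-PD-L1, 1.11 and 0.681 in anti-OX40/CpG, and 2.03 and 0.936 in PDOX. It was higher in 4 of 4 libraries (log2 1.24 ± 0.20 SE, adjusted p 3.97e-06). *Sp100* rose from 4.03 to 4.32, 4.35 to 5.12, 3.41 to 5.28 and 4.88 to 6.96, naive to effector (log2 0.55 ± 0.13, adjusted p 0.000978, higher in 3 of 4 libraries after scaling). *Isg15* stood at 0.333 in effector and 0.627 in naive untreated cells, then 4.03 and 1.62, 0.814 and 0.269, and 1.68 and 1.17 (log2 1.23 ± 0.20, adjusted p 4.85e-06, higher in 3 of 4). The untreated effector values of *Phf11b*, *Sp100* and *Isg15* rest on 14 cells.

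Fewer transcripts were found of *Igtp*, at 0 in effector and 0.706 in naive untreated cells, 0.882 and 2.32 in anti-PD-L1, 0.717 and 1.17 in anti-OX40/CpG, and 0.605 and 1.33 in PDOX. It fell by 0.98 on the log2 scale (SE 0.21, adjusted p 0.000352, lower in 4 of 4 libraries). *Bst2* fell by 0.60 (SE 0.15, adjusted p 0.00183, lower in 4 of 4), from 3.11 to 1.995, 4.00 to 2.77, 2.77 to 1.498 and 3.43 to 1.91. *Phf11b*, *Sp100* and *Igtp* were called under all 13 alternatives. *Isg15* was not called without the library block, and *Bst2* was not called in thinned cells or without the 5% of cells with the most UMIs; over alternatives their adjusted p ran from 7.29e-09 to 0.0555 and from 0.000971 to 0.261.

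Among pathway genes tested in the same comparison, *Ifng* and *Ifnar2* were called higher. *Ifng* was near 0 in naive cells (0.0261, 0, 0.0634 and 0.0390) and at 1.995, 1.22, 1.73 and 1.001 in effector cells (log2 5.58 ± 0.40, adjusted p 3.15e-14, higher in 4 of 4 libraries). *Ifnar2* rose by 0.73 (SE 0.25, adjusted p 0.0282, higher in 4 of 4) and was called under 6 of 12 alternatives, with adjusted p from 0.0171 to 0.150; leaving out anti-PD-L1, anti-OX40/CpG or PDOX ended its call. Effector cells thus had more *Ifng* RNA in each library. NK marker RNA moved with this comparison: the 7 genes summed to 9.64, 3.65, 4.43 and 1.65 in effector and 0.131, 0.237, 0.127 and 0.351 in naive CD8+ T cells, led in effector cells by *Tyrobp* in untreated and *Klre1* in the other 3. The median effector cell had 1885.5 UMIs and the median naive cell 1649.5. In cells thinned to 750 UMIs, 4 members were called higher and 1 lower. The share of all genes called in thinned cells is not given, so these counts are not read against the background. The study reported transcripts of other NK cell receptors, such as *Klrk1* and *Klrc1*, mostly in a CD8+ T cell cluster over-represented in PDOX. Whether the marker RNA here came from NK cells or from the T cells was not tested, nor was its part in the calls.

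Among CD4+ T cells (3 libraries, without untreated, 3597 genes), 2 of 26 members were called higher in effector cells (8.37% of all genes) and 3 lower (8.31%). Both counts are close to the background. DESeq2 called 0 and 0, where edgeR gave 4 and 6 at an unadjusted p under 0.05. *Ifi27l2a* stood at 43.0 in effector and 27.7 in naive anti-PD-L1 cells, 24.9 and 12.5 in anti-OX40/CpG, and 20.6 and 16.0 in PDOX (log2 0.64 ± 0.13, adjusted p 6.67e-06, higher in 3 of 3). *Parp14*, an ADP-ribosyltransferase gene, stood at 2.41 and 0.743, 0.554 and 0.365, and 0.797 and 0.147 (log2 1.39 ± 0.43, adjusted p 0.0107, higher in 3 of 3).

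Lower in effector CD4+ T cells were *Slfn1* (fell by 0.95, SE 0.24, adjusted p 0.000862), *Ifi47* (fell by 0.87, SE 0.24, adjusted p 0.00268) and *Irf9* (fell by 1.06, SE 0.38, adjusted p 0.0348), each in 3 of 3 libraries. *Slfn1* stood at 1.03 in effector and 3.06 in naive cells of anti-PD-L1, 1.26 and 2.64 in anti-OX40/CpG, and 1.81 and 3.09 in PDOX. These calls depend on the anti-OX40/CpG library, which holds 89 of the effector cells: without it 1 member was called higher and 0 lower, and *Ifi27l2a*, *Slfn1*, *Ifi47* and *Irf9* were not called. Over their alternatives, adjusted p ran up to 0.274 for *Ifi27l2a*, 0.118 for *Slfn1*, 0.317 for *Ifi47*, 0.515 for *Irf9* and 0.257 for *Parp14*, which was not called without PDOX or without anti-PD-L1.

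Among pathway genes tested in CD4+ T cells, *Ifng* and *Ifngr1* were called higher. *Ifng* stood at 0.688, 0.705 and 0.889 in effector and 0.0874, 0 and 0.0735 in naive cells (log2 3.79 ± 0.72, adjusted p 3.67e-06, higher in 3 of 3). *Ifngr1* stood at 2.41 and 1.18, 4.08 and 1.78, and 4.08 and 1.25, effector and naive (log2 1.34 ± 0.23, adjusted p 1.96e-07, higher in 3 of 3, called under all 12 alternatives). The median effector CD4+ T cell had 2013.5 UMIs and the median naive one 1523.5. In cells thinned to 750 UMIs, edgeR still called *Ifi27l2a* and *Slfn1* (adjusted p 0.0154 and 0.0217) and not *Ifi47* (0.0709).

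The lineages were then compared directly. In the edgeR test of the difference between the CD4+ and CD8+ changes (3 libraries, 4616 genes), 0 of 31 members were called, beside 0.52% of all genes. At an unadjusted p under 0.05 there were 7, and DESeq2 called 0. The smallest adjusted p was that of *Sp100* (0.0529, log2 difference -0.82 ± 0.21), whose change was 0.55 in CD8+ and -0.16 in CD4+ T cells; 1 member was called with DESeq2 size factors, 1 with the upper limit of 2900 genes and 1 without the 5% of cells with the most UMIs. *Isg15* (1.23 and -0.21) and *Ifi27l2a* (0.11 and 0.64) did not pass, with adjusted p of 0.207 and 0.467. No pathway gene passed by edgeR (3 of 16 at an unadjusted p under 0.05; DESeq2 0); *Ifngr1* had an adjusted p of 0.0852.

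**Figure D3:**
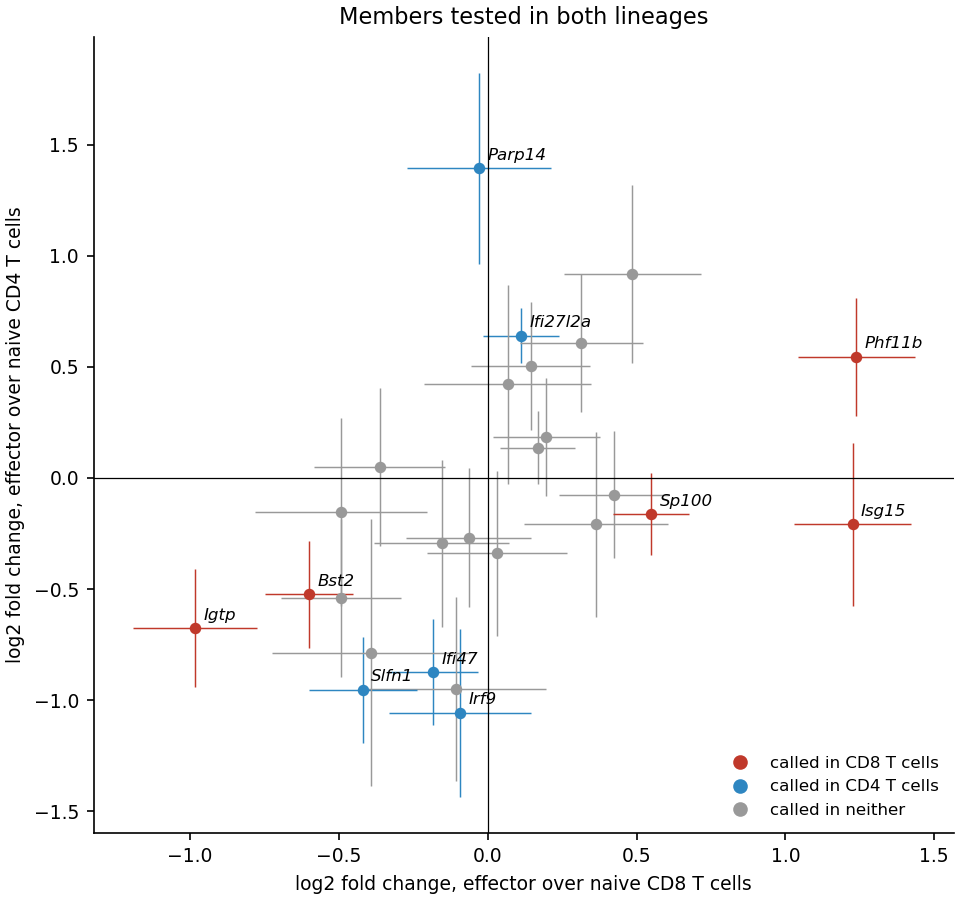
Log2 fold change of effector over naive cells in CD8+ T cells (horizontal axis, 4 libraries) and CD4+ T cells (vertical axis, 3 libraries) for members tested in both, with standard errors. *Phf11b* and *Isg15* lie far right at 1.24 and 1.23, and *Parp14* and *Ifi27l2a* above at 1.39 and 0.64.

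Naive cells of the lineages differed in few members, all in one direction. In naive CD4+ against naive CD8+ T cells (4 libraries, 3858 genes), edgeR called 4 of 26 members higher (5.47% of all genes) and 0 lower (5.68%; 2 at an unadjusted p under 0.05, DESeq2 0). *Slfn2* stood at 5.69 in CD4+ and 3.16 in CD8+ naive cells of the untreated library, 6.60 and 4.93 in anti-PD-L1, 5.97 and 4.02 in anti-OX40/CpG, and 7.43 and 5.23 in PDOX (log2 0.52 ± 0.09, adjusted p 2.40e-07). *Ifi27l2a* stood at 15.4 and 11.2, 27.7 and 23.3, 12.5 and 8.92, and 16.0 and 9.71 (log2 0.38 ± 0.05, adjusted p 1.10e-10). *Slfn1* (log2 0.57 ± 0.13, adjusted p 0.000424) and *Phf11b* (log2 0.67 ± 0.20, adjusted p 0.0128) were also higher. All 4 were higher in 4 of 4 libraries.

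The *Slfn2* call was kept under all 13 alternatives, and DESeq2 called 2 of the 4. *Ifi27l2a* was not called without the library block, *Slfn1* not by DESeq2, and *Phf11b* not without the untreated or the anti-OX40/CpG library among others (adjusted p up to 0.468, 0.188 and 0.561 over alternatives). Of 15 pathway genes, *Ptpn6*, a phosphatase that damps Janus kinase signals, was called higher (log2 0.46 ± 0.16, adjusted p 0.0412, 3 of 4 libraries), and *Ifngr1* (fell by 0.58, SE 0.15, adjusted p 0.00261, 4 of 4) and *Jak1* (fell by 0.27, SE 0.09, adjusted p 0.0347, 3 of 4) lower. DESeq2 called 0 pathway genes in either direction. *Ifngr1* was also not called without anti-PD-L1 (adjusted p 0.00121 to 0.501 over alternatives).

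NK cells had less RNA of several members than T cells of the same libraries. Against CD8+ and CD4+ T cells together (3 libraries, without anti-PD-L1, 5058 genes), edgeR called 0 of 27 members higher (3.84% of all genes; 0 at an unadjusted p under 0.05, DESeq2 0) and 4 lower (6.09%). *Ifi27l2a* stood at 0.465 in NK and 12.1 in T cells of untreated, 0.746 and 11.3 in anti-OX40/CpG, and 0.380 and 15.8 in PDOX. It fell by 4.502 on the log2 scale (SE 0.39, adjusted p 8.07e-28, lower in 3 of 3). *Bst2* fell by 3.64 (SE 0.66, adjusted p 1.30e-06), from 2.998, 2.08 and 2.35 in T cells to 0, 0.187 and 0.380. Both were called under all 11 alternatives.

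*Igtp* (fell by 3.5, SE 0.97, adjusted p 0.00523) and *Slfn1* (fell by 2.66, SE 0.63, adjusted p 0.000568) were lower in 3 of 3 libraries as well. Without anti-OX40/CpG, which holds 33 of the NK cells, 2 members were called, and neither of this pair. *Igtp* was not called without PDOX either, nor *Slfn1* in thinned cells, and DESeq2 called neither (adjusted p up to 0.128 for both over alternatives). *Sp100* and *Slfn2* were the most abundant members in NK cells, with 45 and 36 of 262 UMIs. Among pathway genes, *Irf8* (log2 6.07 ± 0.28, adjusted p 7.94e-102), *Irf5* (2.59 ± 0.87, 0.0338), *Ptpn2* (1.52 ± 0.52, 0.0373) and *Ifngr1* (1.51 ± 0.24, 1.59e-08) were higher in 3 of 3 libraries. DESeq2 called 2 pathway genes higher. The *Irf5* call rests on 2 UMIs in untreated, 2 in anti-OX40/CpG and 1 in PDOX NK cells. NK cells thus had low levels of the member that was most abundant in T cells.

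B cells were lower in 8 members and higher in 0. In that test (3 libraries, without anti-OX40/CpG, 5036 genes), 31 members were tested; 7.55% of all genes were called higher and 8.6% lower, and edgeR gave 1 member higher at an unadjusted p under 0.05 and DESeq2 0. *Slfn1* stood at 0.268 in B and 2.19 in T cells of untreated, 0.131 and 2.30 in anti-PD-L1, and 0 and 1.81 in PDOX. It fell by 4.08 (SE 0.60, adjusted p 7.46e-07, lower in 3 of 3) and was called under all 11 alternatives. The others were *Gbp4* (fell by 2.37, SE 0.66, adjusted p 0.00814), *Gbp7* (fell by 2.12, SE 0.58, adjusted p 0.00637), *Isg15* (fell by 2.10, SE 0.52, adjusted p 0.00260), *Irf7* (fell by 1.92, SE 0.57, adjusted p 0.0133), *Igtp* (fell by 1.43, SE 0.44, adjusted p 0.0179), *Ifi47* (fell by 1.39, SE 0.35, adjusted p 0.00322) and *Bst2* (fell by 1.16, SE 0.30, adjusted p 0.00338), each lower in 3 of 3 libraries. GTPases made up 4 of the 8, from 6 tested, and the difference between groups was not tested. Without anti-PD-L1, 2 members were called, without PDOX 4, and without untreated 9; DESeq2 called 1 and thinned cells gave 3. B cells had a median of 1203.5 UMIs, against 1663.5 in CD8+ and 1599.5 in CD4+ T cells.

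Among pathway genes, B cells had more *Irf8* (log2 4.83 ± 0.36, adjusted p 4.33e-15), *Irf5* (4.67 ± 0.54, 1.78e-09) and *Ptpn6* (1.70 ± 0.24, 3.04e-07) in 3 of 3 libraries. *Ifngr1* fell by 1.26 (SE 0.36, adjusted p 0.00879) and was lower in 3 of 3. It was not called without PDOX, without anti-PD-L1, in thinned cells or by DESeq2, with adjusted p up to 0.203. Platelet RNA differed among B cells, with *Pf4* and *Ppbp* summing to 4.55, 1.04, 0 and 32.3 per 10000; its part in these calls was not tested.

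Single members differed in both directions in monocytes. Against T cells (3 libraries, without untreated, 7061 genes), 6 of 40 members were called higher (10.9% of all genes) and 3 lower (10.1%), with a median log2 change of 0.48 for members and -0.25 for all genes. These counts are close to the background. *Irf7* stood at 4.10 in monocytes and 1.60 in T cells of anti-PD-L1, 1.59 and 0.643 in anti-OX40/CpG, and 2.23 and 0.903 in PDOX (log2 1.39 ± 0.32, adjusted p 0.000174, higher in 3 of 3). *Rtp4* stood at 2.91 and 1.25, 1.98 and 0.439, and 1.41 and 0.478 (log2 1.53 ± 0.36, adjusted p 0.000270, 3 of 3). *Ifi27l2a* stood at 57.3 and 24.2, 21.0 and 11.3, and 18.5 and 15.8 (log2 0.76 ± 0.30, adjusted p 0.0492, 3 of 3), and was called under only 3 of 11 alternatives (adjusted p 0.00707 to 0.542).

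Lower in monocytes in 3 of 3 libraries were *Gbp4* (fell by 2.88, SE 0.71, adjusted p 0.000517), *Gbp7* (fell by 1.45, SE 0.52, adjusted p 0.0292) and *Sp100* (fell by 0.96, SE 0.30, adjusted p 0.0108). *Oasl2*, *Dhx58* and *Zbp1* were called higher with 2 of 3 libraries in that direction. Without PDOX, 3 members were called higher and 0 lower; without anti-PD-L1, 2 and 3; without anti-OX40/CpG, 8 and 2. In thinned cells 0 were called higher, and DESeq2 called 2 higher and 1 lower. *Irf7* was not called in thinned cells, nor *Rtp4* in those or without the 5% of cells with the most UMIs (adjusted p up to 0.0588 and 0.441). Monocytes had a median of 2470 UMIs, against 1663.5 in CD8+ T cells.

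Of the 4 receptor genes, 3 were called higher in monocytes. Of 20 pathway genes, 7 were called higher by edgeR: *Ifnar2* (log2 2.07 ± 0.36, adjusted p 1.10e-07), *Ifngr2*, *Ifngr1*, *Irf5*, *Irf8*, *Ptpn6* and *Myd88*. DESeq2 called 5 higher. *Ifnar2* stood at 2.91 in monocytes and 0.607 in T cells of anti-PD-L1, 0.792 and 0.464 in anti-OX40/CpG, and 2.58 and 0.5997 in PDOX, and was called under all 11 alternatives. *Ifngr1* was higher in 2 of 3 libraries, at 6.67 and 2.22, 1.98 and 2.55, and 5.04 and 2.90. *Ifnar1* was not called (edgeR adjusted p 0.268), with values of 0.513 and 0.927, 0.396 and 0.779, and 0.352 and 0.721 in monocytes and T cells. *Ifng* and *Jak1* were lower; no *Ifng* UMI was found in these monocytes.

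To ask which genes go with the members inside T cells, cells with a UMI of *Ifit3* were set against cells without one, with *Ifit3* itself left out. *Ifit3* was found in 2.88% of untreated CD8+ T cells (9 of 312), 10.03% in anti-PD-L1 (63 of 628), 2.85% in anti-OX40/CpG (19 of 667) and 4.47% in PDOX (20 of 447). Among CD4+ T cells it was found in 2.04%, 6.28%, 2.30% and 4.08%, and in 0 of 67 NK cells, with median depths of 1663.5 UMIs in CD8+, 1599.5 in CD4+ T and 1676 in NK cells. In cells thinned to 750 UMIs the shares were 1.77%, 4.75%, 0.977% and 0.998% in CD8+ and 2.30%, 3.93%, 0.833% and 1.45% in CD4+ T cells. The anti-PD-L1 share was highest at both depths, though its thinned interval in CD8+ T cells (3.18 to 6.79) overlapped that of untreated (0.576 to 4.08). In CD4+ T cells the intervals of these libraries overlapped at full depth (3.29 to 10.72 and 0.248 to 7.18) and thinned (1.595 to 7.935 and 0.280 to 8.06). PDOX went from above to below untreated in both lineages. Positive CD8+ T cells were deeper, with medians of 1986, 1864 and 2170 UMIs against 1686, 1684.5 and 1656 in the 3 treated libraries. Cells without a UMI are not shown to lack the transcript.

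Among CD8+ T cells (3 libraries, without untreated, 5708 genes), 5 of 33 members were called higher in *Ifit3*+ cells, where 0.105% of all genes were, and 0 lower (edgeR; 0 at an unadjusted p under 0.05, DESeq2 0). These 5 were all but 1 of the 6 genes called. Called or not, all 33 members had a positive change, with a median log2 of 0.94, against -0.05 for all genes. *Ifit1* stood at 3.37 in positive and 0.520 in negative cells of anti-PD-L1, 0.763 and 0.179 in anti-OX40/CpG, and 5.01 and 0.201 in PDOX (log2 3.18 ± 0.35, adjusted p 0.000178). *Isg15* stood at 7.75 and 1.503, 1.02 and 0.599, and 9.60 and 0.815 (log2 2.54 ± 0.28, adjusted p 0.000178). The difference was smallest in anti-OX40/CpG for both genes.

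*Rtp4* (log2 1.71 ± 0.29, adjusted p 0.0175), *Irf7* (1.58 ± 0.26, 0.0153) and *Ifi27l2a* (1.06 ± 0.15, 0.00193) were the other members, and all 5 were higher in 3 of 3 libraries. The 6th gene was *Ly6a*, encoding the Sca-1 surface antigen, itself inducible by interferon. It stood at 34.3 and 5.14 in anti-PD-L1, 10.7 and 1.93 in anti-OX40/CpG, and 11.7 and 8.62 in PDOX (log2 1.90 ± 0.31, adjusted p 0.0151). The member count was 2 without anti-PD-L1, 14 without anti-OX40/CpG and 8 without PDOX, 14 when cells were split by *Isg15*, 1 without the library block, and 4 by DESeq2. *Ifit1* was called under all 12 alternatives; without anti-PD-L1, *Isg15*, *Irf7* and *Rtp4* were not.

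In CD4+ T cells only the anti-PD-L1 and PDOX libraries had enough *Ifit3*+ cells, 12 each. There edgeR called 5 of 28 members higher, where 0.562% of 2847 genes were, and 0 lower (0 at an unadjusted p under 0.05; DESeq2 called 0 in either direction). *Ifit1* stood at 3.65 and 0.913 in anti-PD-L1 and at 5.34 and 0.121 in PDOX (log2 3.31 ± 0.51, adjusted p 1.20e-07). *Isg15* (3.08 ± 0.45, 1.10e-08), *Slfn5* (2.95 ± 0.47, 0.0256), *Usp18* (2.89 ± 0.51, 0.00231) and *Ifi27l2a* (0.81 ± 0.21, 0.0171) followed, higher in 2 of 2 libraries. Over all CD4+ T cells of anti-PD-L1 and PDOX, *Slfn5* had only 13 and 7 UMIs and *Usp18* 11 and 21. With DESeq2 or without the library block 0 members were called. With all genes kept, or without the 5% of cells with the most UMIs, 3 were, and *Ifit1* was not among them (adjusted p 9.30e-08 to 0.836 over alternatives).

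Outside the set, the largest increases in these CD4+ cells were *Phf11c* (log2 3.07 ± 0.50, adjusted p 0.000322), *Ifit1bl1* (2.88 ± 0.53, 2.58e-05) and *Trafd1* (2.69 ± 0.52, 0.0112). *BC094916*, *Wdr43*, *Gm4955*, *Dek*, *Pyhin1* and *Mndal* were also called, from 2.34 down to 1.31, and all were higher in 2 of 2 libraries. *Ifitm1* and *S100a11* were lower. *Phf11c* and *Ifit1bl1* are close relatives of members, and shared reads make their values uncertain.

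Pooling the T cells of all 4 T gates, a step added after the data had been seen, gave 200 *Ifit3*+ of 4665 cells and brought in the untreated library. The pool held 225 T cells with both *Cd4* and *Cd8* UMIs, with a median of 1961 UMIs. Whether these were doublets was not tested. With 6518 genes tested over 4 libraries, edgeR called 23 of 37 members higher, where 0.767% of all genes were, and 0 lower (0 at an unadjusted p under 0.05; DESeq2 called 21 higher and 0 lower). All 37 had a positive change, with a median log2 of 1.12, against -0.06 for all genes. All 9 core effectors tested were called, with 3 of 3 *Ifi* genes, 5 of 7 GTPases, 2 of 5 PARP and chromatin genes, 1 each of the OAS, sensor and transcription factor groups, *Trim30a*, and 0 of 4 Schlafens. The difference between groups was not tested.

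The largest changes were in core effectors. *Rsad2*, encoding viperin, stood at 0.842 in positive and 0.170 in negative cells of untreated, 1.01 and 0.0863 in anti-PD-L1, 0.167 and 0.0636 in anti-OX40/CpG, and 0.685 and 0.0193 in PDOX (log2 3.29 ± 0.51, adjusted p 0.000503). Its values in the 21 untreated and 32 anti-OX40/CpG positive cells rest on very few UMIs, so its direction in these libraries is uncertain. *Ifit1* (3.03 ± 0.25, 1.33e-08), *Usp18* (2.63 ± 0.29, 3.27e-06), *Isg15* (2.62 ± 0.21, 1.28e-08), *Cmpk2* (2.29 ± 0.48, 0.0133), *Isg20* (2.19 ± 0.37, 0.00128), *Irf7* (1.83 ± 0.21, 3.45e-06), *Rtp4* (1.73 ± 0.21, 1.27e-05), *Xaf1* (1.60 ± 0.24, 0.000279) and *Oasl2* (1.59 ± 0.36, 0.0270) completed the 10 largest, each higher in 4 of 4 libraries. *Isg15* stood at 5.33 and 1.06 in untreated, 8.69 and 1.61 in anti-PD-L1, 1.84 and 0.568 in anti-OX40/CpG, and 12.7 and 1.22 in PDOX. The rule that named these 10 asks for the same direction in every library, so their direction in untreated was fixed by it. That library had 21 positive cells, and no test was run within it.

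The count was 11 without anti-PD-L1, 16 without anti-OX40/CpG, 20 without untreated and 22 without PDOX, 12 without the library block and 4 in cells thinned to 750 UMIs, where 91 positive cells were left. Those 4 were *Ifit1*, *Isg15*, *Irf7* and *Rtp4*, which were called under all 12 alternatives. Depth thus moves with this comparison, with medians of 1575, 1888, 1680.5 and 2005.5 UMIs in positive and 1447, 1585, 1569 and 1508.5 in negative cells.

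Outside the set, the largest increases held *Tor3a* (log2 1.73 ± 0.43, adjusted p 0.0488), *Cd274* (1.56 ± 0.37, 0.0322), which encodes PD-L1, *Trafd1* (1.47 ± 0.33, 0.0237), *BC094916* (1.47 ± 0.25, 0.00129) and *Phf11c* (1.41 ± 0.32, 0.0254), then *Pydc3*, *Gm4955*, *Tgtp2* and *Pyhin1*. Lower in 4 of 4 libraries were *Krt19*, *Tyrobp*, *Psca*, *Fcer1g* and *Ifitm2*. The 7 NK markers, *Tyrobp* among them, summed to 0.281, 0.202, 0.334 and 0.196 in positive and 0.871, 1.12, 2.08 and 1.24 in negative cells, and the 7 monocyte markers to 8.14, 7.92, 5.85 and 6.17 against 7.62, 6.79, 5.10 and 5.98, led by *Ctss* in 3 libraries and *Lyz2* in untreated. Their part in the calls was not tested.

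What the members share beyond their levels can be read in their promoters. RefSeq promoters (250 bases before to 50 after the start, GRCm38.p6, the build also called mm10) were matched for 34 of the 45 members. The motif searched was GAAA, any 2 bases, GAAA, on both strands (its reverse is TTTC, any 2 bases, TTTC), the core of the interferon-stimulated response element. It was found in 17 of 34 members (50%) and in 1079 of all 27025 genes with a promoter (3.99%). With a spacer of 3 bases, it was found in 7 members (20.6%) and in 3.17% of all genes. The members with it were *Ifit1*, *Ifit3*, *Isg15*, *Rsad2*, *Oas3*, *Stat2*, *Ifih1*, *Ddx58*, *Trim30a*, *Bst2*, *Phf11b*, *Slfn5*, *Slfn8*, *Gbp2*, *Gbp7*, *Igtp* and *Irgm1*. No promoter was matched for *Usp18*, *Oas2*, *Mx1*, *Rtp4*, *Ifi27l2a*, *Dhx58*, *Zbp1*, *Parp9*, *Parp14*, *Gbp4* and *Iigp1*.

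The stretches that hold the motif are shown for 7 members whose levels stood out above, read 5′ to 3′ along the gene, with the motif in capitals. They lie for *Ifit1* at chr19:34640755-34640843 (plus strand), *Ifit3* at chr19:34583343-34583446 (plus strand), *Isg15* at chr4:156200845-156200926 (minus strand), *Bst2* at chr8:71537557-71537632 (minus strand), *Phf11b* at chr14:59341341-59341410 (minus strand), *Igtp* at chr11:58199492-58199555 (plus strand) and *Irgm1* at chr11:48871421-48871480 (minus strand). In *Isg15*, *Bst2* and *Irgm1* motifs overlap, so that the capitals run on. A match describes these letters and does not show that a factor binds there.
Ifit1: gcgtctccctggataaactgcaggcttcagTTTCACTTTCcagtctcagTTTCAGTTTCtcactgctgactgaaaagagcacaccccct
Ifit3: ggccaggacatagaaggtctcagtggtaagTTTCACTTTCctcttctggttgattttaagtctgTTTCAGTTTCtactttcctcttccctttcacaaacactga
Isg15: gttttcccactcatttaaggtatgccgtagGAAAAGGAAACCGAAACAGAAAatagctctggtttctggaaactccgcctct
Bst2: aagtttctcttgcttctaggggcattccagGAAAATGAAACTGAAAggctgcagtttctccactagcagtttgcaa
Phf11b: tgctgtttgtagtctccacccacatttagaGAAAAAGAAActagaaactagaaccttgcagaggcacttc
Igtp: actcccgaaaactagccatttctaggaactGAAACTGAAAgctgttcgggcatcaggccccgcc
Irgm1: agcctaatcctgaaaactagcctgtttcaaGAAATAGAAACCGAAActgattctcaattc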

How the data were processed

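The data are single-cell RNA measurements of blood T cells from 4 libraries. The counts are those the authors deposited, whole UMI counts per gene and cell from 10x Chromium 3′ libraries, with mm10 and Seurat 2 named in the submitters' processing notes and Cell Ranger 2.1.1 in the study's resource list. That program counts reads that map to a single gene, so genes of a family that share sequence may be counted too low.

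Cells with 200 or more genes were kept, and genes of mitochondria (13), ribosomes (102) and hemoglobin (10) were not used. Gates used *Cd3*, *Cd8* and *Cd4* UMIs and marker lists of other cells; 195 cells with mixed markers were left out, and no doublet caller was used. Naive and effector cells were called from 8 and 8 markers by a difference of 2 detected genes or more, a limit set on a range: 544 CD8+ and 185 CD4+ T cells lay within 1 gene of it.

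Levels are UMIs per 10000, with exact Poisson intervals, ratios with exact conditional binomial intervals, and shares with Clopper-Pearson intervals (Python 3.11.15, scipy 1.17.1). A fold of 1.5 was read for genes with 20 or more UMIs over 2 libraries. For shares of cells, each was thinned to 750 UMIs, and the 115, 111, 196 and 212 kept cells with fewer were left out.

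Tests compared subsets of cells within libraries, summed per library (10 or more cells per subset), with the library as a block: edgeR 4.0.16 in R 4.3.3 (filterByExpr, TMM, quasi-likelihood, Benjamini-Hochberg adjusted p under 0.05), and DESeq2 1.42.0. The code was tested on simulated data.

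Members and marker lists were chosen with earlier results of these data known. Genes were named by a rule: members called and of the same direction in every library, up to 10 each way; the most abundant member of each role group; pathway genes; members past 1.5-fold in both gates; and outside the set the 10 largest increases and 5 largest decreases called in *Ifit3*+ cells. 1 item that the rule names is not reported here. Other named genes were chosen after their values were seen. This holds for *Isg15*, *Ifit3*, *Phf11b*, *Usp18* and *Rtp4* between libraries, *Isg15* and *Sp100* in effector cells, members and pathway genes called with 1 library in the other direction, and the members whose promoters are shown.

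Alternatives were other size factors, DESeq2, no filter, no library block, all genes kept, thinned cells, a gate on *Cd8a* or *Cd4* by a log1p value above 1 (a limit the study used for other genes), an upper limit of 2900 genes, no cells among the 5% with the most UMIs, a limit of 1 marker gene, a split by *Isg15*, other depth, UMI and member limits, and leaving out each library. Promoters and coordinates are from RefSeq on GRCm38.p6.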

Additional observations from a re-analysis of the deposited data

Results flagged for a closer look

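Some cells used in no comparison between libraries in the report also held member RNA above the untreated library in anti-PD-L1 and PDOX. These were T cells without *Cd4* or *Cd8* UMIs and cells with neutrophil markers. No value is given for the other unused cells. T cells with *Cd3* but neither *Cd4* nor *Cd8* UMIs, which entered only the pooled *Ifit3* test (222, 360, 474 and 486 cells, in the library order of the report), had a summed member level of 1.506 times untreated in anti-PD-L1 and 1.116 in PDOX, and 0.8855 in anti-OX40/CpG. The few cells with neutrophil markers (9, 7, 1 and 22) had 1.974 times untreated in anti-PD-L1 and 2.526 in PDOX; the 1 cell of anti-OX40/CpG had no member UMI. Each ratio rests on 1 library per group, and no explanation was tested.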

How the results depend on the processing

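Of 949 values of 84 single-gene results in the tests, 738 kept direction and side of the threshold, 211 kept direction only and 0 reversed. Of 143 values of 24 single members between libraries, 139 stayed within the counting interval, 1 moved and 3 reversed, all in CD8+ T cells: *Slfn8* over untreated at 1.27 in anti-OX40/CpG and 1.41 in PDOX in cells thinned to 750 UMIs, and *Iigp1* at 0.674 in PDOX under the log1p gate. Of 353 values of 51 levels, counts and shares, 241 stayed and 112 moved. Those that moved follow by setting; unless said, the cause was not tested.

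Between libraries, with all genes kept the PDOX ratio of summed members was 1.40 in CD8+ and 1.32 in CD4+ T cells, and 15 members were higher in PDOX CD8+ T cells; the totals hold other genes there. With the log1p gate, the CD4+ ratio was 0.8996 in anti-OX40/CpG and 1.06 in PDOX, with 1 member higher in anti-OX40/CpG CD8+, 5 lower in PDOX CD8+, 4 higher in anti-OX40/CpG CD4+, and 5 higher and 6 lower in PDOX CD4+ T cells. In naive cells, the PDOX ratio was 1.11 in CD8+ T cells, and 1 member was higher and 1 lower in anti-OX40/CpG CD4+ T cells. Without *Ifi27l2a* the anti-PD-L1 ratio was 1.51 in CD8+ and 1.43 in CD4+ T cells. Without the 5% of cells with the most UMIs, the PDOX CD4+ ratio was 1.07, 4 members were lower there, and 0 were higher in anti-OX40/CpG CD8+ T cells. In cells thinned to 750 UMIs, 1 was higher in anti-OX40/CpG and 6 lower in PDOX CD8+, 1 lower in anti-PD-L1, 1 lower in anti-OX40/CpG, and 5 higher and 1 lower in PDOX CD4+ T cells. With 50 or more UMIs, which leaves fewer members, 1 was higher and 3 lower in anti-OX40/CpG CD8+, 6 higher in anti-PD-L1, 0 higher and 1 lower in anti-OX40/CpG, and 4 higher and 1 lower in PDOX CD4+ T cells. The counts of members in this paragraph come without a share of all genes and are not read against the background.

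For the share of cells with several members, 4 values are in library order. With 5 or more members it was 14.1%, 32.2%, 8.63% and 14.7% in CD8+ and 21.8%, 38.2%, 19.2% and 18.55% in CD4+ T cells. Thinned to 1000 UMIs, which keeps more UMIs per cell, it was 60.5%, 83.4%, 57.2% and 65.9% in CD8+ T cells, and 88.3%, 68.5% and 70.7% in treated CD4+ T cells; the top cells of anti-OX40/CpG CD8+ held 24.8%. Without the Schlafens and *Bst2*, it was 30.4%, 52.7%, 27.2% and 33.9% in CD8+ and 37.9%, 60.1%, 36.7% and 37.45% in CD4+ T cells, and the top cells held 29.6% in anti-PD-L1 CD8+, 30.1% in anti-OX40/CpG CD8+, 34.8% in anti-OX40/CpG CD4+ and 33.6% in PDOX CD4+ T cells. The anti-PD-L1 share was highest each time.

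In the tests, DESeq2 called 0 members higher and 0 lower in effector CD4+ T cells, 2 higher in naive CD4+, 2 lower in NK and 1 lower in B cells, 2 higher and 1 lower in monocytes, and 0 in *Ifit3*+ CD4+ T cells. DESeq2 size factors gave 1 in the interaction, 5 lower in monocytes and 8 in *Ifit3*+ CD8+ T cells. With all genes kept, 9 were called in *Ifit3*+ CD8+ and 3 in *Ifit3*+ CD4+ T cells; of 70 calls among all genes in the first, 27.1% were higher. With no filter these counts were 10 and 2, and 0 were higher in effector CD4+ T cells. Without the library block 0 were higher in effector CD4+ T cells, 2 in naive CD4+, 4 lower in B cells, and 1, 0 and 12 called in *Ifit3*+ CD8+, CD4+ and all T cells. Thinned to 750 UMIs, with fewer genes tested, 1 was lower in effector CD8+, 1 higher and 1 lower in effector CD4+ T cells, 2 lower in NK, 3 lower in B cells, 0 higher in monocytes, and 4 called in all T cells. The limit of 2900 genes gave 1 in the interaction. Without the 5% of cells with the most UMIs, 1 was lower in effector CD8+ T cells, 1 called in the interaction, 3 higher in monocytes, and 11 and 3 called in *Ifit3*+ CD8+ and CD4+ T cells. A split by *Isg15* gave 14 and 2. Taking all T cells in place of CD8+ gave 23; this and its own alternatives were chosen after seeing the data. The motif with a spacer of 3 bases was in 20.6% of members.

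Leaving out each library in turn, members called ran from 2 to 14 in *Ifit3*+ CD8+ and 11 to 22 in all T cells, 1 to 1 higher and 0 to 3 lower in effector CD4+ T cells, 2 to 4 lower in NK cells, 2 to 9 lower in B cells, and 2 to 8 higher and 0 to 3 lower in monocytes. The thinned *Ifit3* tests in CD8+ and CD4+ T cells could not be fitted, and leaving out a library was not possible in *Ifit3*+ CD4+ T cells with 2 libraries. With 1 library per treatment, no test between treatments was run; a model that adds the effects of the 2 treatments would leave 1 residual degree of freedom. At this depth, most members have under 1 UMI per 10000, so a cell without a UMI is not shown to lack the transcript.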
